A study of Homo sapiens and Mus musculus with 10 samples.

Results

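GDF15, INHBE and STC2 encode proteins that stressed cells secrete, and their transcripts were followed through every HEK293T library of a series on stress-responsive RNA. The members were taken as the rows of the 2 HEK293T count tables whose symbol was GDF15, INHBE or STC2. This gave 3 rows of 16120 in the stress-set table and 3 rows of 11976 in the genotype-set table, and all 3 transcripts were among the 10368 that both tables hold. HEK293T is a human embryonic kidney line. In the stress set there was 1 library each of wild-type (WT) cells treated for 6 h with 300 nM thapsigargin (TG), of cells deprived of glucose for 24 h (GD) and of mock-treated cells. TG inhibits calcium uptake into the endoplasmic reticulum (ER) and so causes ER stress. The genotype set held 1 library each of UFD1s-deficient GD, WT GD, UFD1s-deficient mock and WT mock cells. UFD1s is a form of UFD1, a cofactor of the ATPase p97. No source used here says how the deficiency was made or whether the deficient line is 1 clone. In all groups the cells were of the same HEK293T line.

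GDF15 is a distant member of the TGF-beta family of secreted dimers, and it acts through the receptor GFRAL with its co-receptor RET in the hindbrain to reduce food intake. INHBE encodes the beta-E subunit of inhibins and activins, is made mostly in liver, and as activin E acts on fat tissue through the receptor ACVR1C. STC2 is a stanniocalcin, a secreted glycoprotein that blocks the protease PAPP-A, which would otherwise release insulin-like growth factors from IGFBP4. All of these genes are known targets of the integrated stress response, in which kinases such as PERK raise translation of the transcription factor ATF4 and ATF4 induces CHOP (gene DDIT3).

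The libraries held between 11461365 and 19024327 counted reads. The ribosomal precursor RNA45SN5 took 8.31% of reads in TG, 10.69% in GD and 7.73% in mock of the stress set, and its part in the results was not tested. The hepatocyte marker ALB, with a row in the stress table alone, had 0, 5 and 0 reads in TG, GD and mock. The 4 epithelial markers (KRT8, KRT18, KRT19, EPCAM) summed to 45.5 CPM (per library total) in TG, 39.0 to 66.2 in the 3 GD libraries and 65.8 to 89.3 in the 3 mock libraries, with KRT8 at 0 in stress-set TG and mock and no EPCAM row in the genotype table. The 4 fibroblast markers (COL1A1, COL3A1, LUM, DCN) summed to 35.5 CPM in TG, 18.6 to 55.5 in GD and 45.7 to 111 in mock, and the 4 neuronal markers (NEFL, NEFM, ISL1, HAND2) to 101, 94.0 to 189 and 190 to 279. DCN had no row in either table and NEFM none in the genotype table, and the part of these marker levels in the results was not tested.

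The 3 genes lie on different chromosomes, GDF15 on 19, INHBE on 12 and STC2 on 5. The 250 bases before the RefSeq start are shown for GDF15 (chr19:18385908-18386157, plus strand) and STC2 (chr5:173328415-173328664, minus strand), on build GRCh38.p14. INHBE had no window among the promoter sequences used, so none is shown for it. Capitals mark matches, on either strand, to the GC box GGGCGG, the CCAAT box CCAAT and the TATA box TATAAA.
GDF15: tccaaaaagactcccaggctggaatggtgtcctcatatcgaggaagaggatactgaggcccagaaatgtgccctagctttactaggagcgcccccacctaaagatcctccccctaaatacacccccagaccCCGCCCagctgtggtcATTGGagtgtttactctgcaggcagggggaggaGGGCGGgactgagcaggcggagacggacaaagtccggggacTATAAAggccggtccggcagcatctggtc
STC2: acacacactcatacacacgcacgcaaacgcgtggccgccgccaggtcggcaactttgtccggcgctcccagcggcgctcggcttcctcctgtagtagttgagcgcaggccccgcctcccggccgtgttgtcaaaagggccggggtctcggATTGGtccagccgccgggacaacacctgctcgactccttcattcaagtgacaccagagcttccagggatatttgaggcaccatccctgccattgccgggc
In GDF15, GC box letters began 119 and 70 bases before the start, CCAAT letters 103 bases and TATA letters 29 bases before it. In STC2 the single match was CCAAT, beginning 100 bases before the start. The CCAAT matches of both genes read ATTGG on the printed strand. Of 35116 RefSeq windows of the same length, 42.6% held GGGCGG, 32.0% held CCAAT and 10.7% held TATAAA. The C/EBP-ATF composite element that ATF4 and its partners are known to bind, searched as TGATGNAA, was in 3.14% of windows, the cyclic AMP response element TGACGTCA in 1.65% and the ER stress element in 0.074%. None of these 3 motifs was in the window of GDF15 or of STC2.

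The first question was how the secreted factors changed in cells without glucose. GDF15, INHBE and STC2 all rose in GD. The GDF15 transcript (NM_004864.2) had 288 reads in stress-set WT GD, 98 in genotype-set WT GD and 57 in deficient GD, against 5, 18 and 21 reads in the mock libraries of the same sets and genotypes. As CPM, reads scaled to a common library size with TMM factors, these were 23.5, 8.80 and 4.90 in GD and 0.277, 1.41 and 1.57 in mock. Every GD library was thus above every mock library, which is a description only, since the share of all transcripts that do so was not counted. The stress set held both the highest GD level and the lowest mock level. Levels were scaled within each table, so a difference in level between sets also carries the scaling. In bulk RNA a higher level per cell and a larger share of cells with the transcript cannot be told apart.

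INHBE (NM_031479.3) had 106, 29 and 58 reads in stress-set WT GD, genotype-set WT GD and deficient GD, against 7, 13 and 18 reads in the matching mock libraries. Its levels were 8.65, 2.61 and 4.98 CPM in GD and 0.387, 1.02 and 1.34 in mock. Here too the groups did not overlap, although genotype-set WT GD rested on few reads. STC2 (NM_003714.2) had by far the most reads, 1360, 1980 and 1464 in the 3 GD libraries in the same order and 591, 665 and 649 in mock. Its levels were 111, 178 and 126 CPM in GD and 32.7, 52.1 and 48.4 in mock, again without overlap. What share of all transcripts separates GD from mock in this way was not counted, so the lack of overlap is a description only. Over the pair of WT libraries of each condition, GDF15 averaged 16.2 ± 10.4 CPM in GD and 0.843 ± 0.801 in mock, INHBE 5.63 ± 4.28 and 0.703 ± 0.446, and STC2 144 ± 47.3 and 42.4 ± 13.7 (SD, n = 2 each, from differently scaled tables).

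**Figure D1:**
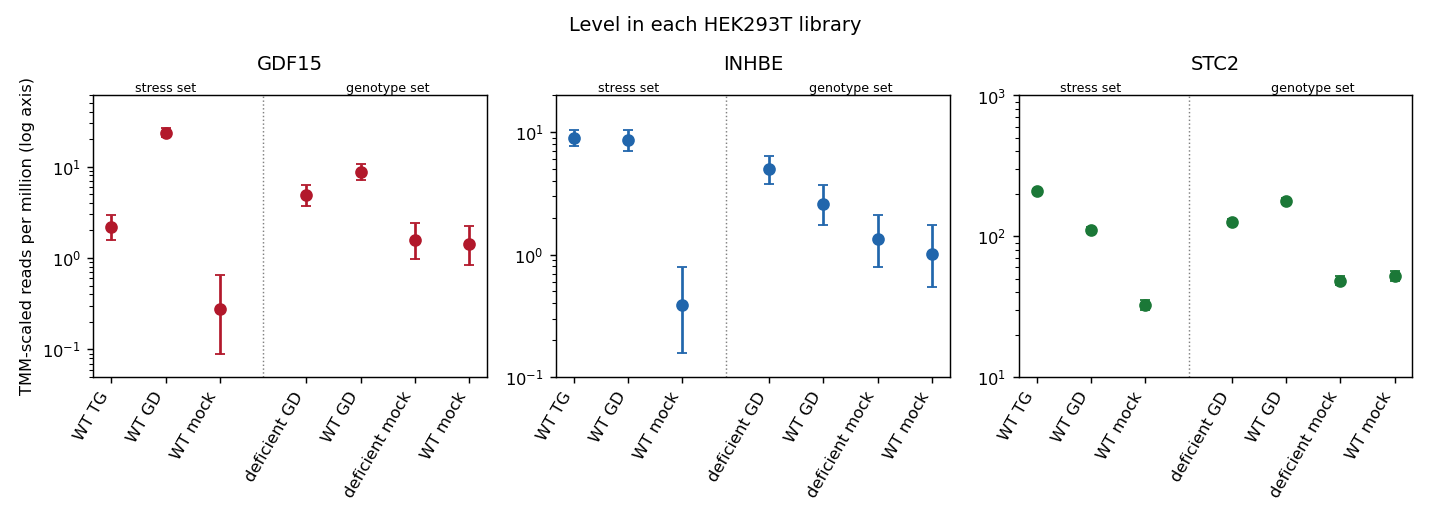
Counts per library scaled to CPM with TMM factors (log axis, a different range in each panel) of GDF15, INHBE and STC2 in the 7 HEK293T libraries, stress set left and genotype set right of the dotted line, with exact Poisson 95% intervals that cover counting error only. In each set every stressed library lies above every mock library for all 3 genes, and the share of all transcripts that do so was not counted. GDF15 is highest in stress-set GD at 23.5, INHBE is at 9.06 in TG and 8.65 in GD, and STC2 is highest in TG at 211.

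In the fit over the 6 mock and GD libraries, with set and genotype as terms, GDF15 was higher in GD by 3.34 on the log2 scale (SE 0.667, 95% interval 1.84 to 4.83, edgeR adjusted p = 0.008738). INHBE was higher by 2.51 (SE 0.559, 95% interval 1.26 to 3.77, edgeR adjusted p = 0.01353). STC2 was higher by 1.63 (SE 0.110, 95% interval 1.38 to 1.88, edgeR adjusted p = 8.769e-05), the smallest of these changes and the most precisely estimated. All 3 members were thus called higher, as were 9.75% of the 10368 transcripts tested (1011 higher and 1153 or 11.1% lower, or 683 higher and 1526 lower with library totals alone). The p-values rest on the spread of the response between 3 mock and GD pairs, since no condition was repeated within a set. For each transcript edgeR combines that spread with the spread of all transcripts tested. Nothing in the labels says that libraries came from separate cultures, so the p-values measure only the spread between these libraries, which may be technical. Without the set term GDF15 (3.46, edgeR adjusted p = 0.1296) and INHBE (2.66, edgeR adjusted p = 0.1381) were not called. The call of INHBE was lost in the WT libraries alone (2.89, edgeR adjusted p = 0.05706). Each GD and mock pair has its own baseline in this fit, so leaving out either library of a pair leaves out the pair. Without deficient GD or deficient mock the fits thus rest on the WT libraries, at 2.89 and 2.89 for INHBE. Without stress-set WT GD or stress-set WT mock they rest on the genotype-set libraries. The estimates there were 2.14 and 2.15 for GDF15, 1.65 and 1.65 for INHBE and 1.58 in each case for STC2.

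Pair by pair, the response of GDF15 differed most. Against the mock of its own set and genotype, GDF15 was 84.95-fold higher in stress-set WT GD (exact 95% counting interval 36.0 to 264), 6.24-fold higher in genotype-set WT GD (3.75 to 10.97) and 3.13-fold higher in deficient GD (1.87 to 5.43). INHBE was higher by 22.3-fold (10.5 to 56.9), 2.56-fold (1.29 to 5.36) and 3.71-fold (2.15 to 6.69) in the same order. STC2 was higher by 3.39-fold (3.08 to 3.74), 3.42-fold (3.13 to 3.73) and 2.60-fold (2.37 to 2.85). The ratios of GDF15 and INHBE thus spread widely between pairs, and those of STC2 stayed close together. By a rule of at least 2-fold (log2 CPM with a prior count of 5) and at least 50 reads in the higher library, all 3 genes passed in stress-set GD, where 3.73% of transcripts were higher and 3.57% lower, and in deficient GD, where 2.14% were higher and 4.17% lower. In genotype-set WT GD, where 2.39% of transcripts were higher and 4.42% lower, GDF15 and STC2 passed, and INHBE with 29 reads was below the minimum.

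**Figure D2:**
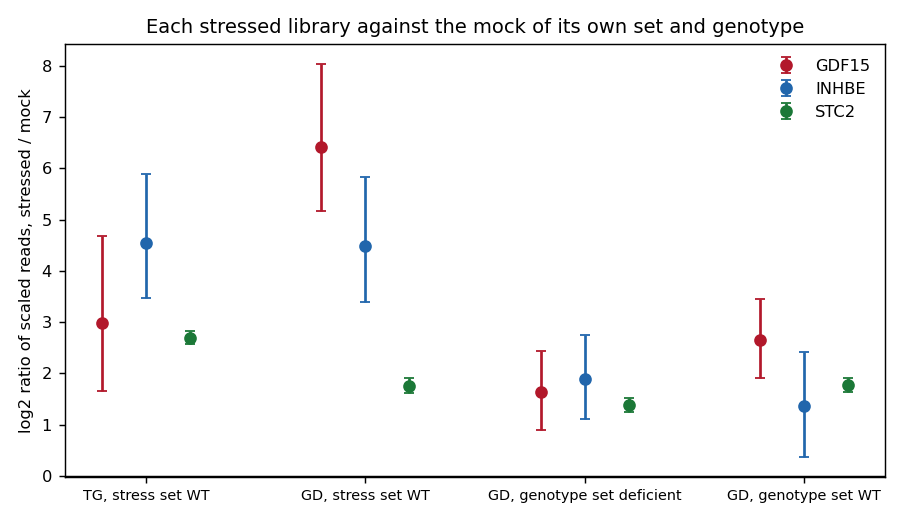
Log2 ratio of scaled reads of each stressed library over the mock of its own set and genotype, with exact conditional 95% intervals for counting error. GDF15 has its highest ratio in stress-set GD (6.41), whereas STC2 lies between 1.38 and 1.77 in the 3 GD libraries and at 2.69 in TG. The TG and stress-set GD ratios share a mock library.

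The difference in GD response between the sets was itself tested. The response of GDF15 was larger in the stress set than in the genotype set by 4.20 on the log2 scale (SE 0.704, 95% interval 2.73 to 5.66, edgeR adjusted p = 0.000433, 1 stress-set pair and 2 genotype-set pairs). That of INHBE was larger by 2.79 (SE 0.818, 95% interval 1.09 to 4.49, edgeR adjusted p = 0.03142). For STC2 the difference was 0.17 (SE 0.164, 95% interval −0.17 to 0.51, edgeR adjusted p = 0.579), so its response was not shown to differ, and the interval bounds any excess in the stress set at 0.51. Of all transcripts tested, 4.81% had a larger and 5.63% a smaller change in the stress set. The stress set has a single pair, so the residual spread in this fit comes from the 2 genotype-set pairs alone (1 residual degree of freedom). The fit also borrows from the spread of all transcripts, and the p-values and intervals rest on that as well. The stress-set pair is assumed to vary like the genotype-set pairs, and the p-values hold no spread of the stress-set response. The stress-set pair is WT, whereas 1 of the 2 genotype-set pairs is deficient, so genotype is mixed into this difference. In the stress-set and genotype-set WT pairs, the log2 ratios to mock were 6.41 and 2.64 for GDF15. They were 4.48 and 1.36 for INHBE and 1.76 and 1.77 for STC2. Set cannot be told apart from whatever else differed between the experiments. Within the 4 libraries of the genotype set, where 16.1% of 11975 transcripts were called higher and 16.7% lower in GD, GDF15 still rose by 2.14 (SE 0.395, edgeR adjusted p = 0.0002785), INHBE by 1.64 (SE 0.480, edgeR adjusted p = 0.01209) and STC2 by 1.58 (SE 0.0935, edgeR adjusted p = 1.187e-10).

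The next comparison set TG beside GD in the stress set. There was 1 library of each, both set against the same mock library, so the differences have no replicate check, no p is given and the intervals cover counting error only. Dose and time differed as well, 300 nM for 6 h in TG and 24 h without glucose in GD. The 3 genes ordered the stresses differently. GDF15 had 41 reads in TG and 288 in GD, against 5 in mock. Its level was 2.20 CPM in TG, 7.94-fold above mock (3.14 to 25.8), and TG stood at 0.0935 of the GD level (0.0657 to 0.130). INHBE had 169 reads in TG and 106 in GD, against 7 in mock. At 9.06 CPM in TG it was 23.4-fold above mock (11.1 to 59.1) and 1.05-fold the GD level (0.817 to 1.35), so the stresses were not distinguishable for INHBE at this depth. STC2 had 3937 reads in TG and 1360 in GD, against 591 in mock. Its TG level of 211 CPM was 6.45-fold above mock (5.92 to 7.05) and 1.90-fold above GD (1.79 to 2.02). By the rule of 2-fold and 50 reads, INHBE and STC2 were higher in TG than in mock, as were 4.73% of transcripts with 3.31% lower, and GDF15 with 41 reads was below the minimum. Against GD, GDF15 was lower in TG by the same rule, as were 3.99% of transcripts with 4.58% higher, and INHBE and STC2 passed in neither direction.

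Per kilobase of transcript (1200 bases for GDF15, 2429 for INHBE and 5353 for STC2), the genes can be set beside each other. In TG, STC2 stood at 39.4 CPM per kilobase, INHBE at 3.73 and GDF15 at 1.83. In stress-set GD, STC2 stood at 20.7 and GDF15 at 19.6, with INHBE at 3.56. In stress-set mock STC2 was at 6.11, GDF15 at 0.231 and INHBE at 0.160. STC2 was therefore the most abundant per length in each stress-set condition, with GDF15 close to it in GD. In the genotype set STC2 was at 23.5 in deficient GD and 33.2 in WT GD, with 9.05 in deficient and 9.73 in WT mock cells. GDF15 was at 4.08, 7.34, 1.31 and 1.18 there, and INHBE at 2.05, 1.07, 0.553 and 0.419.

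UFD1s-deficient cells were then set against WT within the genotype set. In GD, GDF15 had 57 reads in deficient and 98 in WT cells, a ratio of 0.556 (0.394 to 0.779). INHBE had 58 reads in deficient GD and 29 in WT GD, a ratio of 1.91 (1.20 to 3.10). STC2 had 1464 and 1980 reads, a ratio of 0.707 (0.661 to 0.757). GDF15 and STC2 were thus at a lower level and INHBE at a higher level in deficient GD, each beyond counting error, with 1 library a side. In mock the levels did not differ beyond counting error, with ratios of deficient to WT of 1.11 for GDF15 (0.564 to 2.21), 1.32 for INHBE (0.611 to 2.93) and 0.930 for STC2 (0.833 to 1.04). The authors' deposited table gives the same comparison as log2 ratios of −0.84 for GDF15 (p = 0.0867), 0.94 for INHBE (p = 0.0889) and −0.50 for STC2 (p = 0.231) in GD. For mock the authors' deposited table gives 0.14, 0.38 and −0.12, with p of 1.0, 0.574 and 0.785. By the rule of 2-fold and 50 reads, none of the 3 genes passed between genotypes in GD, where 1.38% of transcripts were higher and 1.42% lower in deficient cells, or in mock, where 1.48% were higher and 1.21% lower.

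Over the 6 libraries no member was called between genotypes, where 1.11% of transcripts were (0.328% higher and 0.781% lower in deficient cells). The deficient-minus-WT difference was −0.39 for GDF15 (SE 0.813, 95% interval −2.22 to 1.43, edgeR adjusted p = 0.895), 0.71 for INHBE (SE 0.684, 95% interval −0.83 to 2.24, edgeR adjusted p = 0.725) and −0.31 for STC2 (SE 0.132, 95% interval −0.60 to −0.01, edgeR adjusted p = 0.337). The STC2 difference was called in the 4 genotype-set libraries alone (−0.32, edgeR adjusted p = 0.002216). It was −0.32 without stress-set WT GD and −0.33 without stress-set WT mock. The set term absorbs the stress-set library left over, so these fits rest on the same 4 libraries and are no further check. The sign for GDF15 turned without deficient GD (1.15) and without genotype-set WT mock (0.05), and that for INHBE without genotype-set WT GD (−0.24). The GD response of deficient cells minus that of WT cells was −2.61 for GDF15 (SE 1.17, 95% interval −5.26 to 0.04, edgeR adjusted p = 1.0), −1.01 for INHBE (SE 1.17, 95% interval −3.65 to 1.64, edgeR adjusted p = 1.0) and −0.38 for STC2 (SE 0.252, 95% interval −0.95 to 0.19, edgeR adjusted p = 1.0). The WT side of this test averages both sets. For GDF15 the log2 ratio to mock was 1.64 in deficient and 2.64 in WT cells of the genotype set, against 6.41 in the stress-set WT pair. The −2.61 for GDF15 thus also carries the difference between sets. Within the genotype set alone the INHBE ratio had the other order, with a log2 ratio to mock of 1.89 in deficient and 1.36 in WT cells, against 4.48 in the stress-set WT pair. For this difference in response edgeR called 0 of 10368 transcripts (0.0%), with 123 at an unadjusted p under 0.05. DESeq2 also called 0, with 22 at that level. In simulated counts with the same dispersion for every transcript, this fit recovered 12% of planted 2-fold and 88% of planted 4-fold changes. The lack of calls therefore does not show equal responses.

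**Figure D3:**
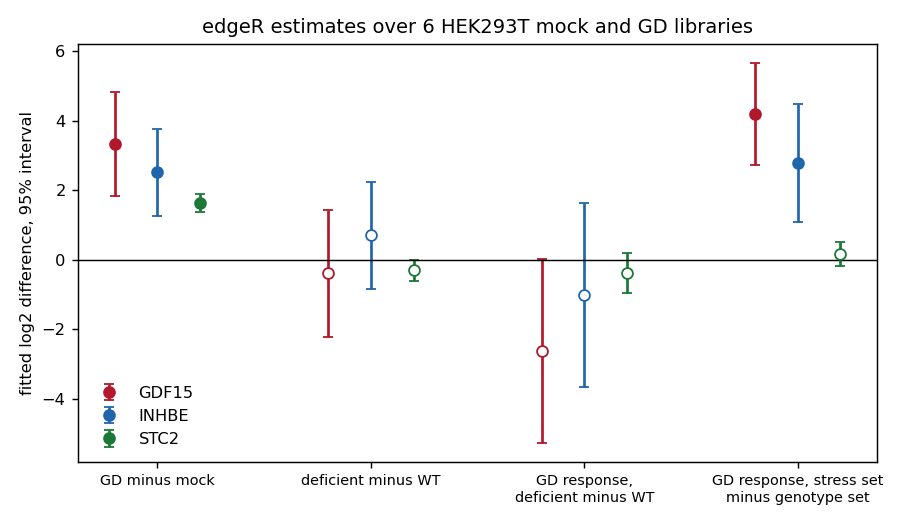
Fitted log2 differences for GDF15, INHBE and STC2 with 95% intervals from edgeR over the 6 HEK293T mock and GD libraries, filled where the adjusted p is under 0.05. All 3 genes are above 0 for GD minus mock (3.34, 2.51 and 1.63), and the difference in response between sets is called for GDF15 (4.20) and INHBE (2.79) and not for STC2 (0.17).

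No TGF-beta family ligand other than GDF15 and INHBE was called higher in GD. Of 33 listed ligands 16 were tested, 2 rose in GD, namely GDF15 and INHBE themselves, and 4 fell, against 9.75% higher and 11.1% lower of all transcripts, with a list median of −0.28 on the log2 scale against −0.02 over all transcripts tested. GDF11, a relative of myostatin, had 709, 609 and 674 reads in stress-set WT GD, genotype-set WT GD and deficient GD, against 2008, 1918 and 1926 in the matching mock libraries, and changed by −1.24 (SE 0.114, edgeR adjusted p = 0.0003282). BMP6, a regulator of iron balance, changed by −0.99 (edgeR adjusted p = 0.001052) and AMH, the anti-Müllerian hormone, by −1.22 (edgeR adjusted p = 0.01143). BMP5 was at −1.78 and not called (edgeR adjusted p = 0.06508). The fourth fall was GDF6 at −0.92, named after its value was seen. The call of AMH was lost in the WT libraries alone (−1.13, edgeR adjusted p = 0.09071). BMP5 was called with the genotype-set WT pair left out, at −2.08 without its GD library and −2.10 without its mock library. In TG, 1 of 13 ligands with enough reads was at least 2-fold higher, INHBE itself, and 3 were at least 2-fold lower, against 4.73% and 3.31% of all transcripts.

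Of 16 listed receptors 6 were tested, with 0 called higher or lower in GD, against 20.9% of all transcripts, a number too small to set apart from that share, and their median was 0.05. GFRAL and ACVR1C, the receptors for GDF15 and activin E, had no row in either table. Among 11 tested SMADs and extracellular inhibitors 1 rose and 1 fell, near the shares of 9.75% and 11.1% of all transcripts. The fall was BAMBI, a decoy receptor of the family, with 154, 231 and 241 reads in the GD libraries, against 810, 958 and 707 in mock (log2 −1.68, SE 0.144, edgeR adjusted p = 0.0002712). GREM1 and CHRD, secreted antagonists of bone morphogenetic proteins, were at 1.44 and −0.83 and LTBP2 at −0.43, none of them called. In the genotype-set libraries alone GREM1 was called at 2.15 (edgeR adjusted p = 0.0009492) and CHRD at −0.92 (edgeR adjusted p = 0.0246). GREM1 went the other way in the stress set, with 0 reads in GD against 6 in mock. It had 22 and 52 reads in genotype-set WT GD and deficient GD, against 4 and 16 in mock. The rise was SMAD4, the shared signal transducer, at 0.33, named after its value was seen. The proprotein convertases, which cut the precursors of this family into active proteins, had 0 of 5 tested members called, against 20.9% of all transcripts, with PCSK5 at −1.07 (edgeR adjusted p = 0.1437).

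Around STC2, 3 of 5 tested binding proteins of insulin-like growth factors fell, and IGFBP3 (−0.19, edgeR adjusted p = 0.8776) and IGFBP6 (−0.57, edgeR adjusted p = 0.5653), named after their values were seen, were not called. Of 14 genes listed for the stanniocalcin and PAPP-A axis 10 were tested, 2 rose and 3 fell, against 9.75% and 11.1% of all transcripts, with a median of −0.38. IGFBP5 had 167, 58 and 79 reads in stress-set WT GD, genotype-set WT GD and deficient GD, against 935, 566 and 580 in mock, and changed by −2.52 (SE 0.212, edgeR adjusted p = 0.0002677). IGFBP4, the PAPP-A substrate, changed by −1.01 (SE 0.162, edgeR adjusted p = 0.003481) and IGFBP2 by −0.57 (edgeR adjusted p = 0.01385). STC1, the other stanniocalcin, was at −1.13 and not called (edgeR adjusted p = 0.05069), opposite in sign to STC2. STC1 was called in the genotype-set libraries alone (−1.63, edgeR adjusted p = 0.0003413). The call of IGFBP4 was lost without deficient mock (edgeR adjusted p = 0.05081), and that of IGFBP2 without any 1 of the 4 genotype-set libraries (edgeR adjusted p from 0.0635 to 0.1473). Beside STC2 the second rise was PAPPA, the protease that STC2 inhibits, at 0.50 (edgeR adjusted p = 0.02373), named after its value was seen. In TG, 1 of 8 members with enough reads was at least 2-fold higher, STC2 itself, and 1 was lower, against 4.73% and 3.31% of all transcripts.

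Of 25 other secreted factors of stressed cells 8 were tested and 3 rose, against 9.75% of all transcripts. CXCL8, a neutrophil chemokine, had 14, 22 and 48 reads in the GD libraries and 687 in TG, against 8, 6 and 10 in the mock libraries, and was higher in GD by 1.99 (SE 0.494, edgeR adjusted p = 0.02074). MANF, a growth factor kept in and released from the ER, was higher by 1.30 (SE 0.194, edgeR adjusted p = 0.002406), with 2395, 905 and 1208 reads in GD and 7975 in TG, against 916, 647 and 578 in mock. CRELD1 was higher by 1.51 (edgeR adjusted p = 0.01015), and the chemokine CCL2 was at −1.61 and not called (edgeR adjusted p = 0.1546). The list median was 0.54. The call of CXCL8 was lost without any 1 of the 4 genotype-set libraries (edgeR adjusted p from 0.05932 to 0.2164), and that of CRELD1 without deficient GD (edgeR adjusted p = 0.09761) or deficient mock (edgeR adjusted p = 0.07262). In TG, 6 of 9 members with enough reads were at least 2-fold higher, against 4.73% of all transcripts.

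The list for control of the integrated stress response and of GDF15 held 21 genes. Of 16 tested, 11 rose in GD and 0 fell, against 9.75% and 11.1% of all transcripts. Their median was 1.33 against −0.02 over all transcripts. The list mixes regulators with genes that the response induces, such as TRIB3, so this is not a count of upstream regulators alone. In TG 11 of 15 were at least 2-fold higher, against 4.73% of all transcripts. DDIT3, which encodes CHOP, was higher by 4.14, TRIB3, a pseudokinase that CHOP induces, by 2.97, PPP1R15A, the phosphatase subunit GADD34, by 2.96 and CEBPB, a partner of ATF4, by 1.89. The ATF4 transcript had 329 reads in TG and 124 in GD, against 168 in mock of the stress set, and was not called in GD (log2 0.14, edgeR adjusted p = 0.6111), a gene named after its value was seen.

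**Figure D4:**
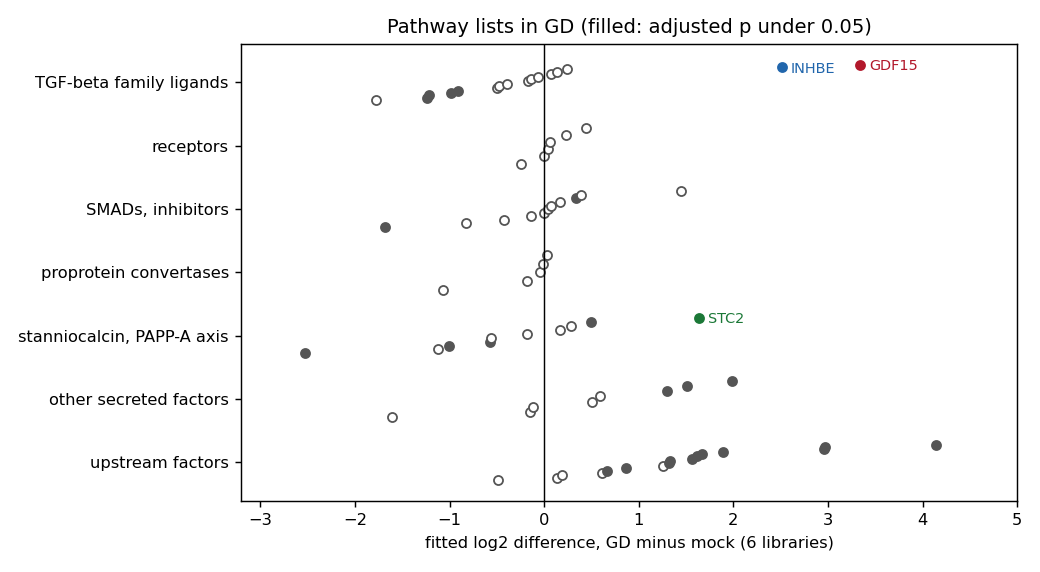
Fitted log2 difference, GD minus mock over 6 HEK293T libraries, of each tested member of 7 gene lists, filled where the edgeR adjusted p is under 0.05. GDF15 (3.34) and INHBE (2.51) stand to the right of all other ligands, and STC2 (1.63) to the right of the rest of its axis, where IGFBP5 is lowest at −2.52.

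The transcripts most like each gene were found by Euclidean distance over 4 log2 ratios to the own mock, TG and GD of the stress set and GD in WT and deficient cells of the genotype set, among 9160 other transcripts. These ratios share libraries, so likeness is a description. Nearest to STC2, at distances of 0.585 to 0.693, were CEBPB, CTH, which makes cysteine, the stress-induced sestrin SESN2, ZBED3 and the ER co-chaperone DNAJB9. Nearest to INHBE was HSPA5, the ER chaperone BiP, at a distance of 1.21. Next were LURAP1L, AKNA, SLC7A11-AS1, an antisense RNA whose reads cannot be told from its partner's, and RAB39B at up to 1.78. In genotype-set WT GD and deficient GD, RAB39B was only at 0.302 and 0.211, against 1.08 and 1.62 for INHBE. RAB39B was not called in GD over the 6 libraries (edgeR adjusted p = 0.1216). Nearest to GDF15 were AKNA at 2.13, OSGIN1, an oxidative stress gene, KRT17, a keratin, LURAP1L and TRIB3 at 2.52. No transcript lay as near to GDF15 as the fifth neighbour of STC2 lay to STC2. GDF15 had the highest log2 ratio in stress-set GD, 5.35, against 3.11 to 3.94 in those 5 transcripts. Both stress-set ratios of GDF15 rest on the same 5 mock reads, and without the prior count its stress-set GD ratio was 6.41. Those of INHBE rest on the same 7 mock reads, and its stress-set GD ratio was 3.69 with the prior count and 4.48 without. The part of these few reads in the distances of GDF15 and INHBE was not tested. INHBE was the eighth nearest of the 9160 to GDF15 and STC2 ranked 26, while from STC2 INHBE ranked 198 and GDF15 ranked 3144.

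**Figure D5:**
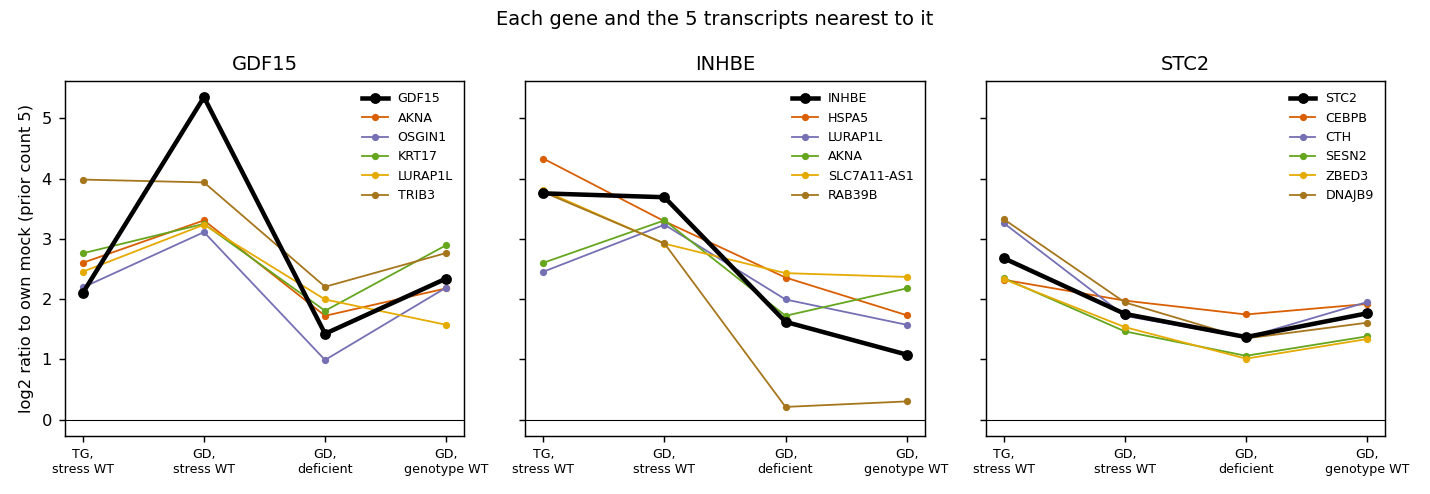
Log2 ratio to the own mock (prior count 5) in TG, stress-set GD, deficient GD and genotype-set WT GD, for GDF15, INHBE and STC2 (black) and the 5 transcripts nearest to each (coloured). The neighbours of STC2 follow it closely, with distances up to 0.693, whereas GDF15 at 5.35 in stress-set GD stands above all 5 of its neighbours.

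The genes beside the members had few reads, were not called or were absent from the shared fit. PGPEP1, before GDF15 on chromosome 19, had 512, 250 and 359 reads in stress-set WT GD, genotype-set WT GD and deficient GD, against 509, 427 and 532 in mock (log2 −0.12, SE 0.202, edgeR adjusted p = 0.710). INHBC, a paralogue next to INHBE, had 15 reads in TG and 20 in GD, against 18 in mock of the stress set. BOD1, beside STC2, had 339 reads in genotype-set WT GD and 337 in deficient GD, against 250 and 258 in the matching mock libraries. It had 4 or fewer reads in each stress-set library. The sets count different transcripts of BOD1, so these reads cannot be compared between sets, and it was not in the shared fit. A microRNA gene, MIR3189, overlaps GDF15 and an uncharacterised non-coding gene, LOC124902947, overlaps INHBE in the RefSeq table. No source used here says whether counting used strand, so reads of overlapping genes cannot be told apart.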

How the data were processed

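RNA depleted of ribosomal RNA was sequenced. Per the labels' protocols, TRIzol was used for total RNA and a TruSeq Ribo Profile kit for the libraries. Per the submitters' processing notes, the tools were Bowtie2, bedtools, cutadapt and FastQC and the human build was hg19, with no setting named. No source used here gives the rule, annotation or strand setting of counting. In the deposited tables a value is the authors' raw count for 1 RefSeq transcript, and a count need not be a gene total. Beside the genotype counts stand log2 ratios by the authors for deficient over WT, and deposited p-values from a test that is not stated. Each pair of these columns was assigned to the treatment of the counts it follows. The N2a libraries were not used here.

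Genotype and treatment came from the labels and set from the table. Differences were tested by quasi-likelihood in edgeR (version 4.0.16, limma 3.58.1, R 4.3.3), fitted to 6 libraries (GD and mock) with terms for treatment, genotype and set, TMM factors, the default expression filter (0 shared transcripts removed) and Benjamini-Hochberg adjustment at 0.05 over 10368 transcripts. It leaves 2 residual degrees of freedom, and each interaction fit leaves 1. Quasi-likelihood in edgeR combines the spread of each transcript with that of all transcripts, so p-values and intervals do not rest on these degrees of freedom alone. SE is the log2 difference divided by the root of F. Comparisons with 1 library a side have no p: folds are ratios of TMM-scaled reads with exact conditional 95% intervals for counting error alone, and a size rule asked for a change of at least 2-fold and, in the higher library, at least 50 reads (log2 CPM with a prior count of 5). Transcript lengths came from GENCODE 29 by exact accession, promoter windows from RefSeq on GRCh38.p14, where 2 of 3 members matched, and gene order from the RefSeq gene table of that assembly, another build than hg19. The scripts were tested on simulated counts.

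The members and the 7 gene lists were chosen with earlier results of these data known. Named genes are the members, the 5 transcripts nearest to each (small RNA, histone and uncharacterised names left out) and, per list, the 4 genes (or fewer) that differed most in the 6-library fit, and exceptions are marked. The alternatives were RLE size factors, library totals, DESeq2 1.42.0, other filters, no set term, single sets or genotypes, and leaving out each library. For the 4-library fit the scalings were added after seeing the data.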

Additional observations from a re-analysis of the deposited data

Results flagged for a closer look

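The GD response of GDF15 was larger in the stress set than in the genotype set by 4.20 on the log2 scale, and that of INHBE by 2.79, past the threshold in a fit of the difference itself (edgeR adjusted p = 0.000433 and 0.03142, 1 pair against 2 pairs). The residual spread in that fit came from the genotype-set pairs alone, 1 WT and 1 deficient, and was combined with that of all transcripts. The stress-set response thus has no replicate check, and DESeq2 gave no adjusted p for either gene. The levels below come from tables scaled separately. GDF15 stood at 23.5 CPM in stress-set GD, against 8.80 in genotype-set WT GD, and at 0.277 in stress-set mock, against 1.41 in genotype-set WT mock. For INHBE these levels were 8.65 and 2.61 in GD and 0.387 and 1.02 in mock.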

How the results depend on the processing

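In GD against mock, GDF15, INHBE and STC2 kept their direction under every alternative that gave a value. Without the set term GDF15 (3.46, edgeR adjusted p = 0.1296) and INHBE (2.66, edgeR adjusted p = 0.1381) were not called, and INHBE was not called in the WT libraries alone (2.89). Leaving out 1 library gave 2.14 to 4.25 for GDF15, 1.65 to 3.05 for INHBE and 1.56 to 1.76 for STC2. With 10 or more reads required in every library, GDF15 and INHBE were not tested. The count of 2164 called transcripts moved to 24 without the set term, 4040 in the genotype set alone and 490 in WT alone, and ranged from 494 to 4039 without 1 library. For deficient against WT, leaving out 1 library gave −1.45 to 1.15 for GDF15, −0.24 to 1.45 for INHBE and −0.49 to −0.11 for STC2, and STC2 was called in the genotype set alone (−0.32). The 115 called transcripts became 222 in DESeq2, 0 without the set term (794 at an unadjusted p under 0.05), 1942 in the genotype set alone and 5 to 1938 without 1 library. The 1083 transcripts whose response differed between sets became 275 in DESeq2, which gave no adjusted p for GDF15 or INHBE there. With library totals the STC2 ratio in stress-set GD was 3.06. The labels carry no replicate numbers to block on, and the set and genotype terms already give each GD and mock pair its own baseline. The interaction fits and the 4-library fit cannot lose a library, since no residual degree of freedom would remain. STC1 was called with library totals (−1.20), in DESeq2 (−1.17) and in the genotype set alone (−1.63). The causes were not tested. Of the 5 transcripts nearest to each gene, the GD ratios alone kept 3 for GDF15, 3 for INHBE and 2 for STC2. A prior count of 1 kept 4, 3 and 4. Depth limits GDF15 and INHBE, with 5 to 21 reads in mock, far more than STC2.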

Other observations

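Some relatives of the members had rows in the stress-set table alone, with few reads and no test, and are named after their values were seen. INHBA, the activin A subunit, had 28 reads in TG and 4 in GD, against 8 in mock. FGF21, a liver hormone of fasting, had 14 reads in TG and 2 in GD, against 0 in mock. RET, the co-receptor for GDF15, had 16 reads in TG and 22 in GD, against 41 in mock.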
